A study of Mus musculus with 9 samples.

Results

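The 10 genes described here make amino acids and mitochondrial one-carbon units or answer to amino acid and protein stress, and many of them are textbook targets of the transcription factor ATF4. They were Phgdh, Psat1, Psph, Shmt2, Mthfd2, Aldh18a1, Asns, Trib3, Ddit3 and Atf3, 10 of 19938 genes measured. They were chosen by name, with earlier results of these data known. Each was read from the probe set annotated to that symbol alone, and each had 1 such probe set. Expression was measured in mouse pluripotent stem cells on 9 single-colour Affymetrix arrays, 3 for each of 3 cultures. Embryonic stem cells (ESCs) of strain 129 were kept in 2i, by the usual meaning of that name the GSK3 inhibitor CHIR99021 with the MEK inhibitor PD0325901. Epiblast stem cells (EpiSCs) of strain CD1 were kept in one of 2 media, with CHIR99021 plus XAV939 (which inhibits tankyrase and so raises Axin) or with FGF2 plus activin, both of them growth factors. The labels give CHIR99021 at 3 µM, PD0325901 at 1 µM, XAV939 at 2 µM and both growth factors at 10 ng/ml, for the series rather than for each sample. All cultures shared a GMEM base with 10% serum, 2 mM glutamine, 1 mM pyruvate, 0.1 mM mercaptoethanol and 1% nonessential amino acids, a supplement that holds serine, glycine, asparagine and proline. The number of lines behind each group, their passage and any feeder layer are not stated in the labels.

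Serine is built from a glycolytic intermediate in 3 steps. PHGDH oxidises 3-phosphoglycerate, PSAT1 moves an amino group from glutamate onto the product, and PSPH removes the phosphate. SHMT2 then splits serine into glycine and a folate-bound one-carbon unit inside mitochondria, and MTHFD2 oxidises that unit on its way to formate for purine and thymidylate synthesis. ATF4 is a basic leucine zipper factor whose translation increases when the initiation factor eIF2 is phosphorylated, for example when an amino acid runs short. It binds C/EBP-ATF elements and induces amino acid synthesis, transport and tRNA charging genes, together with the stress genes Trib3, Ddit3 (CHOP) and Atf3. Its own mRNA level therefore need not follow its activity.

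In outline, FGF2/activin EpiSCs had less of 9 of the 10 transcripts than ESCs and more of Atf3. CHIR/XAV EpiSCs divided the same 9 genes. Psph, Mthfd2, Aldh18a1 and Trib3 were not called different from ESCs there, and Psat1, Shmt2 and Asns lay between the other cultures. Phgdh and Ddit3 were lower in both EpiSC cultures. On a second probe set, shared by Phgdh and a predicted gene, CHIR/XAV EpiSCs also lay between the other cultures.

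A search for the ATF4-type core TGATGNAA on both strands (TTNCATCA on the other strand) was made in windows of 300 bases, 250 before and 50 after each RefSeq start site. The window of 3 of the 10 genes held it, those of Asns, Trib3 and Atf3, against 3.97% of 32851 windows and 4.51% of 27025 genes overall. Those stretches are shown because the 3 genes took different courses across the cultures. Below them are the stretches of Chac1, Nupr1 and Slc7a11, wide-difference genes of the lists described further on, picked because their windows held the motif. By list, the share of genes with it was 0 of 12 for one-carbon and glycine enzymes, 12.5% of 8 for proline, glutamate and aspartate enzymes and 25.0% of 16 for the ATF4 list. It was 36.4% of 11 for tRNA synthetases, 28.6% of 7 for amino acid transporters and 8.33% of 12 for chaperones and sensors of the endoplasmic reticulum. Stretches are read along the gene's strand in GRCm38.p6, with the match in capitals. Positions count from the start site, negative before it. The Asns match began at -23 (chr6:7693210-7693262, minus strand), that of Trib3 at 15 (chr2:152344028-152344057, minus strand) and that of Atf3 at -110 (chr1:191183406-191183473, minus strand). Those of Chac1 (chr2:119351019-119351086, plus strand) and Nupr1 (chr7:126625543-126625610, minus strand) began at -193 and -110. Slc7a11 (chr3:50443623-50443709, minus strand) held a pair of them, at -66 and -47. The form TGATGCAA shares ATGCAA with the octamer motif of POU factors such as OCT4. A match is a description of the letters and not evidence of binding, and the windows of the other 7 genes did not contain these letters.
Asns: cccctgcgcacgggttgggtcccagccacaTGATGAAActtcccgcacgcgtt
Trib3: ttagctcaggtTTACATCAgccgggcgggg
Atf3: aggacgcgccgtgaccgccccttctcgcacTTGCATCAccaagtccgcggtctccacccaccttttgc
Chac1: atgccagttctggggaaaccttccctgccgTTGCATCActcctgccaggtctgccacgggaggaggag
Nupr1: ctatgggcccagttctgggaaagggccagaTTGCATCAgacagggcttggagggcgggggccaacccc
Slc7a11: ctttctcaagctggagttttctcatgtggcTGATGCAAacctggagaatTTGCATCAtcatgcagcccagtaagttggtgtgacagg

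Values are log2 expression, so a difference of 1 is 2-fold, and array medians over all probe sets lay between 5.572 and 5.653. Levels are compared only within a gene, because probe sets differ in brightness. Marker levels fitted the culture names: the mean of 8 naive markers such as Esrrb was 9.61 to 9.64 on ESC arrays and 5.82 to 6.02 on EpiSC arrays. The mean of 6 primed markers such as Fgf5 was 6.68 to 6.69 on ESC arrays and 9.03 to 9.21 on EpiSC arrays. Among markers of other cells, the mean of 9 fibroblast or feeder genes was 5.13 to 5.38 on all arrays, that of 7 endoderm genes 5.02 to 5.32, that of 6 mesoderm genes 5.23 to 5.66, that of 6 neural genes 5.6 to 5.92 and that of 6 trophoblast genes 5.62 to 6.23. Single markers did differ, among them the feeder-list gene Thy1 (5.44 in ESCs, 7.21 in CHIR/XAV and 5.7 in FGF2/activin EpiSCs), Eomes (6.4 in ESCs, 7.43 in CHIR/XAV and 8.72 in FGF2/activin EpiSCs), Nes (5.32, 7.7 and 8.98) and Tfap2c (9.05, 6.07 and 7.26), and their part in the results below was not tested. In bulk RNA, fewer cells of a type and less RNA per cell cannot be told apart. Strain and PD0325901 go with cell type, so their part in any difference from ESCs cannot be told apart from that of cell state. The labels do not tie the arrays to independent cultures, and p-values measure the spread between arrays, which may be technical. Calls are Benjamini-Hochberg adjusted p-values under 0.05 from limma over all 19938 genes. By that rule 46.7% of all genes were called between CHIR/XAV EpiSCs and ESCs, 61.3% between FGF2/activin EpiSCs and ESCs and 41.6% between the EpiSC cultures. Of these calls 52.7%, 45.3% and 49.2% were higher in the first-named group as deposited, and 35%, 35% and 43.5% after centring each array on its median over the 19938 genes. Those gene medians were 5.71 to 5.718 on ESC arrays and higher, 5.782 to 5.822, on EpiSC arrays, whereas medians over all probe sets were lower on EpiSC arrays (5.572 to 5.636 against 5.641 to 5.653). Centring over genes moved the median difference from -0.031 to -0.132 in the first comparison.

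Phgdh (probe set 10500529, chromosome 3), the entry enzyme of serine synthesis, was lower in both EpiSC cultures than in ESCs. It read 8.0, 7.94 and 7.83 on the ESC arrays, 7.29, 7.48 and 7.48 on the CHIR/XAV arrays and 7.46, 7.72 and 7.31 on the FGF2/activin arrays. Every ESC array lay above every EpiSC array, while the EpiSC cultures overlapped. The difference from ESCs was -0.51 (SE 0.10, adjusted p = 0.000668, limma) in CHIR/XAV and -0.43 (SE 0.10, adjusted p = 0.00188) in FGF2/activin EpiSCs. Between the EpiSC cultures it was -0.07, with a 95% interval from -0.29 to 0.14. A second probe set is annotated to both Phgdh and the predicted gene Gm6756 and was kept out of the tests. Its group means were 9.42 ± 0.03 in ESCs, 9.24 ± 0.01 in CHIR/XAV and 8.76 ± 0.05 in FGF2/activin EpiSCs (SD, n = 3), with all 3 groups apart. The EpiSC cultures thus overlapped on one probe set and not on the other, and how much of the shared signal belongs to Gm6756 is uncertain.

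Psat1 (probe set 10466410, chromosome 19), the aminotransferase of the second step, was highest in ESCs and lowest in FGF2/activin EpiSCs. The arrays read 10.13, 10.07 and 10.03 in ESCs, 9.75, 9.83 and 9.79 in CHIR/XAV and 9.1, 9.23 and 9.0 in FGF2/activin EpiSCs, with no overlap between any of the groups. CHIR/XAV EpiSCs were lower than ESCs by a small step (-0.28, SE 0.07, adjusted p = 0.00448, limma). FGF2/activin EpiSCs were lower by a larger one (-0.97, SE 0.07, adjusted p = 3.87e-08), or 1.95-fold. The gap between the EpiSC cultures, 0.68 (SE 0.07), was itself called (adjusted p = 3.4e-06).

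Psph (probe set 10534075, chromosome 5), the phosphatase that finishes serine, set FGF2/activin EpiSCs apart. It read 8.19, 8.16 and 8.35 in ESCs and 8.16, 8.3 and 8.61 in CHIR/XAV EpiSCs, which overlapped, and 7.37, 7.4 and 7.17 in FGF2/activin EpiSCs, below all others. The third CHIR/XAV array was the highest of all 9. Against ESCs, FGF2/activin EpiSCs were lower by 1.89-fold (-0.92, SE 0.11, adjusted p = 4.73e-06, limma) and CHIR/XAV higher than FGF2/activin EpiSCs by 2.06-fold (1.04, SE 0.11, adjusted p = 2.6e-06). Between CHIR/XAV EpiSCs and ESCs the difference was 0.13, with a 95% interval from -0.10 to 0.36.

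**Figure D1:**
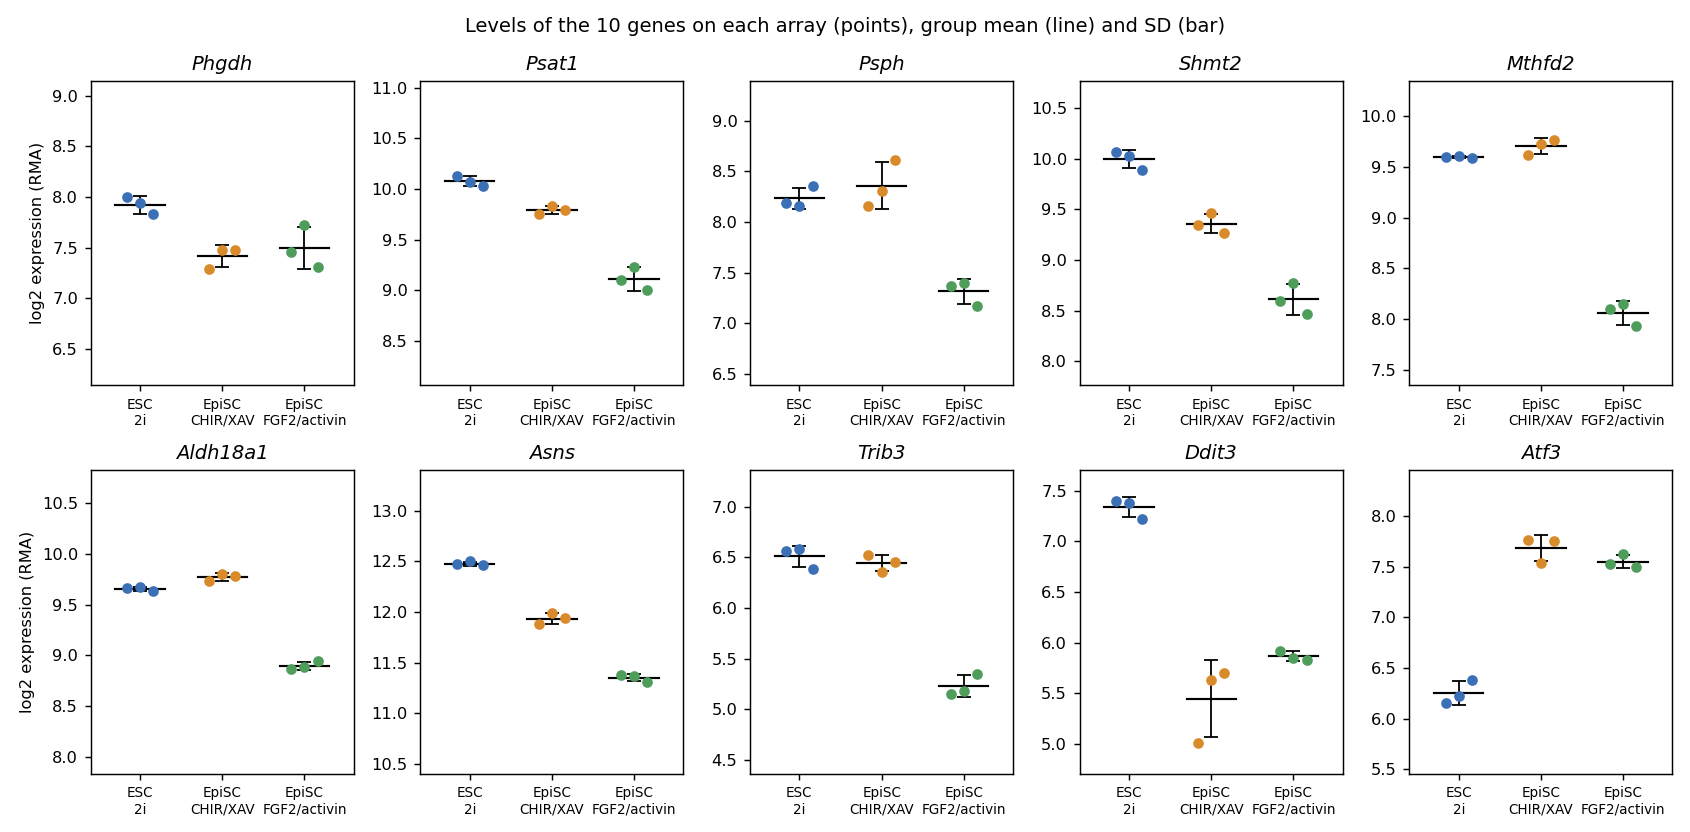
Log2 expression (RMA, vertical axis) of the 10 genes on each of 9 arrays, 1 panel per gene, with points for arrays, lines for group means and bars for the SD. All panels span 3 log2 units but sit at different levels. FGF2/activin EpiSCs lie below both other groups for 7 genes, Ddit3 is high only on the ESC arrays (7.22 to 7.4), and Atf3 is low only there (6.15 to 6.38).

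The mitochondrial one-carbon enzymes showed the widest falls among the 7 biosynthetic genes in FGF2/activin EpiSCs. Shmt2 (probe set 10373202, chromosome 10), which releases the one-carbon unit from serine, read 10.06, 10.03 and 9.89 in ESCs, 9.34, 9.46 and 9.27 in CHIR/XAV and 8.59, 8.77 and 8.47 in FGF2/activin EpiSCs. The 3 groups formed steps without overlap. Against ESCs the difference was -0.64 (SE 0.09, adjusted p = 2.42e-05, limma) in CHIR/XAV and -1.38 (SE 0.09, adjusted p = 5.45e-09), or 2.61-fold, in FGF2/activin EpiSCs, and 0.75 (SE 0.09) separated the EpiSC cultures (adjusted p = 8.65e-06).

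Mthfd2 (probe set 10545672, chromosome 6), the dehydrogenase and cyclohydrolase that follows, stayed near the ESC level in one EpiSC culture and not in the other. ESC arrays read 9.6, 9.61 and 9.59, CHIR/XAV arrays 9.62, 9.73 and 9.77, and FGF2/activin arrays 8.1, 8.15 and 7.93. The fall in FGF2/activin EpiSCs was 2.91-fold from ESCs (-1.54, SE 0.07, adjusted p = 2.62e-10, limma), the 324th lowest difference of 19938 genes. CHIR/XAV EpiSCs exceeded FGF2/activin EpiSCs by 3.14-fold (1.65, SE 0.07, adjusted p = 4.79e-10), the 110th highest. CHIR/XAV arrays lay just above the ESC arrays, by 0.11 on average (95% interval -0.05 to 0.27), and this was not called (adjusted p = 0.253).

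Aldh18a1 (probe set 10467470, chromosome 19) encodes P5CS, which starts proline and ornithine synthesis from glutamate. It read 9.66, 9.67 and 9.63 in ESCs, 9.73, 9.8 and 9.78 in CHIR/XAV and 8.86, 8.88 and 8.94 in FGF2/activin EpiSCs. The FGF2/activin arrays stood well below the rest, by -0.76 (SE 0.06, adjusted p = 9.23e-08, limma) against ESCs. CHIR/XAV EpiSCs were 0.88 (SE 0.06, adjusted p = 4.9e-08) above FGF2/activin EpiSCs. The difference between CHIR/XAV EpiSCs and ESCs was 0.12 (95% interval -0.01 to 0.25, adjusted p = 0.126).

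Asns (probe set 10543067, chromosome 6), asparagine synthetase, followed the graded course of Psat1 and Shmt2. Its arrays read 12.47, 12.5 and 12.46 in ESCs, 11.88, 11.99 and 11.94 in CHIR/XAV and 11.38, 11.37 and 11.31 in FGF2/activin EpiSCs. The steps between groups were many times the spread within them. CHIR/XAV EpiSCs were lower than ESCs by 1.46-fold (-0.54, SE 0.06, adjusted p = 4.89e-06, limma) and FGF2/activin EpiSCs by 2.18-fold (-1.13, SE 0.06, adjusted p = 1.48e-09). The EpiSC cultures differed by 0.58 (SE 0.06, adjusted p = 3.99e-06).

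The 3 stress genes differed in course from each other, and Trib3 shared that of Psph, Mthfd2 and Aldh18a1. Trib3 (probe set 10488608, chromosome 2), a pseudokinase that binds AKT and ATF4, read 6.56, 6.58 and 6.39 in ESCs, 6.52, 6.36 and 6.45 in CHIR/XAV and 5.15, 5.18 and 5.35 in FGF2/activin EpiSCs. ESCs and CHIR/XAV EpiSCs overlapped and differed by -0.06 (95% interval -0.23 to 0.11). FGF2/activin EpiSCs were lower than ESCs by 2.43-fold (-1.28, SE 0.08, adjusted p = 4.94e-09, limma) and than CHIR/XAV EpiSCs by 2.32-fold (adjusted p = 2.54e-08). Their arrays were below the array median, where a level cannot be told from background, so the fold may be understated.

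Ddit3 (probe set 10366881, chromosome 10) encodes CHOP, the C/EBP-family factor linked to cell death under prolonged protein stress. It read 7.4, 7.38 and 7.22 in ESCs, 5.01, 5.63 and 5.7 in CHIR/XAV and 5.92, 5.85 and 5.83 in FGF2/activin EpiSCs. Both EpiSC cultures lay more than 1 log2 unit below every ESC array, near or below the array median in CHIR/XAV EpiSCs, where background cannot be told apart. The falls were 3.7-fold in CHIR/XAV (-1.89, SE 0.14, adjusted p = 3.82e-08, limma) and 2.76-fold in FGF2/activin EpiSCs (-1.47, SE 0.14, adjusted p = 4.83e-07). Of the 10 genes it was the only one called lower in CHIR/XAV than in FGF2/activin EpiSCs (-0.42, SE 0.14, adjusted p = 0.0243). That call was lost without the first CHIR/XAV array (-0.20, adjusted p = 0.0599), the lowest of the 9, and without the first (adjusted p = 0.0699) or the second (adjusted p = 0.0526) FGF2/activin array.

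Atf3 (probe set 10361091, chromosome 1), an ATF/CREB-family factor that many kinds of stress and growth signals induce, was the 1 gene of the 10 called higher in EpiSCs than in ESCs. It read 6.15, 6.22 and 6.38 in ESCs, 7.76, 7.53 and 7.75 in CHIR/XAV and 7.52, 7.62 and 7.5 in FGF2/activin EpiSCs. Both EpiSC cultures stood above every ESC array, and they overlapped each other. Atf3 was higher than in ESCs by 2.69-fold in CHIR/XAV (1.43, SE 0.08, adjusted p = 3.35e-09, limma) and by 2.46-fold in FGF2/activin EpiSCs (1.3, SE 0.08, adjusted p = 7.63e-09). Between the EpiSC cultures the difference was 0.13 (95% interval -0.05 to 0.31, adjusted p = 0.219). After quantile normalization it was 0.29 and called (adjusted p = 0.0204).

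The counts over the 10 genes are set here beside those over all genes. Because the 10 were chosen with earlier results of these data known, the shares describe them and are not a test. Between CHIR/XAV EpiSCs and ESCs, 5 were lower (22.1% of all genes were) and 1 was higher (24.7% of all genes). The members' median difference was -0.17, against -0.03 over all genes, and 8 of 10 had groups without overlap, against 53.2% of all genes. By 2-fold or more, Ddit3 alone of the 10 was lower (3.3% of all genes) and Atf3 alone higher (5.03%). Between FGF2/activin EpiSCs and ESCs, 9 were lower (33.5% of all genes) and 1 was higher (27.8%), with a median of -1.05 against -0.08. None of the 10 had overlapping arrays there (66.6% of all genes had none), 5 fell by 2-fold or more, as 3.45% of all genes did, and Atf3 was again the 1 higher by that much (6.66%). Between the EpiSC cultures 7 were higher in CHIR/XAV (20.5% of all genes) and 1 lower (21.1%), with a median of 0.71 against 0.05, and 8 had groups without overlap (52.0%). Psph, Mthfd2 and Trib3 were higher by 2-fold or more (1.62% of all genes), and none of the 10 was lower by that much in limma (2.5% of all genes), Ddit3 with -0.42 being the lowest. The comparisons share arrays, so these counts are not independent of each other. The shares over all genes include dim genes, whereas all 10 members remained when the dimmest 40% were left out. Then 7918, 8687 and 7005 of 11963 genes were called in the 3 comparisons, in the order above. Of the members 6, 10 and 8 were called there.

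**Figure D2:**
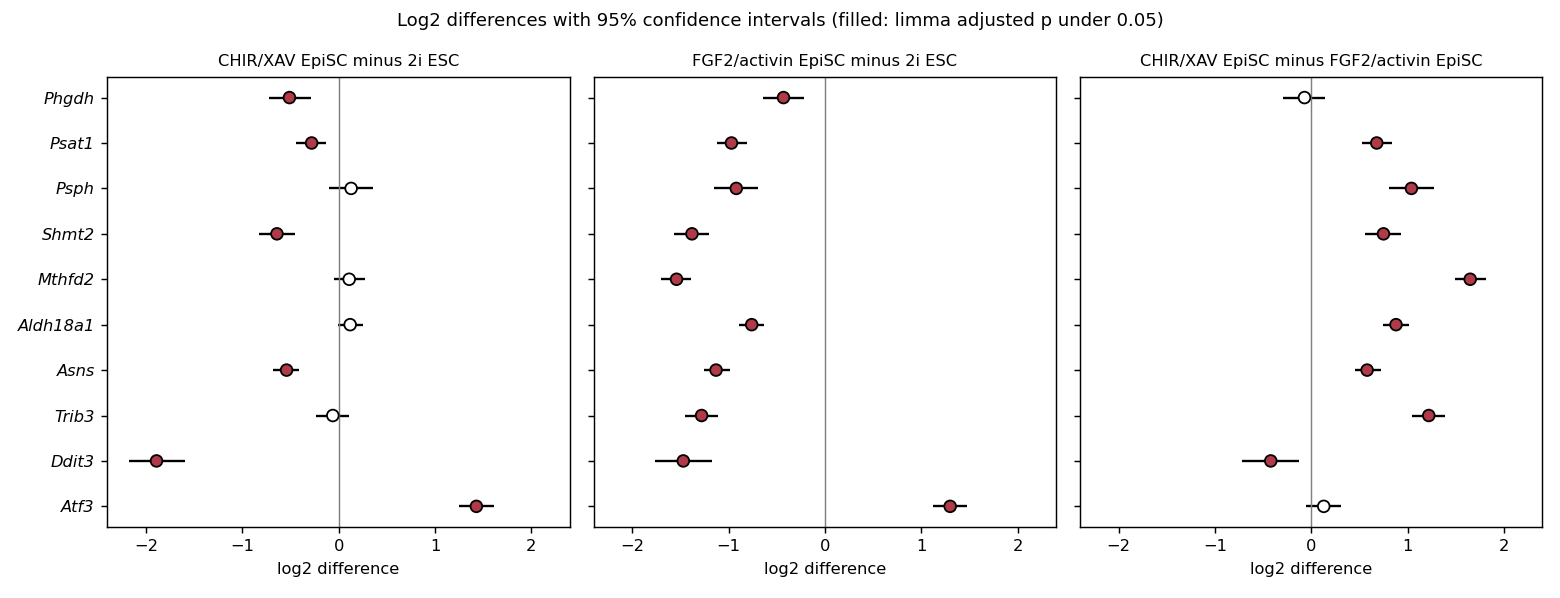
Log2 differences of the 10 genes in 3 comparisons (horizontal axis, log2 units), with 95% confidence intervals as bars and filled circles for calls. Mthfd2, Psph, Aldh18a1 and Trib3 sit near 0 between CHIR/XAV EpiSCs and ESCs and well away from 0 in both comparisons with FGF2/activin EpiSCs.

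FGF2/activin EpiSCs were called below both other cultures for 7 of the 10 genes, as for 11.7% of all genes. In 4 of them (Psph, Mthfd2, Aldh18a1 and Trib3) no call was made between those other cultures, a course that 6.88% of all genes took. In 3 (Psat1, Shmt2 and Asns) all 3 steps were called in the order ESC, CHIR/XAV, FGF2/activin, as in 3.31% of all genes. The CHIR/XAV mean of these 3 lay 29.5%, 46.2% and 48.2% of the way from the ESC mean to the FGF2/activin mean on the log2 scale. The probe set shared by Phgdh and Gm6756 stepped down in the same order (means 9.42, 9.24 and 8.76). It was kept out of the tests and is not in these counts. The spread between arrays was like that of other genes, with a median SD of 0.09 over members and groups against 0.084 over all genes, and the widest, 0.38, was that of Ddit3 in CHIR/XAV EpiSCs.

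Genes of the surrounding pathways are given from lists chosen by function, also with earlier results of these data known. Their counts beside those of all genes are likewise a description and not a test. Atf4 was lower in FGF2/activin EpiSCs and slightly higher in CHIR/XAV EpiSCs than in ESCs. It read 8.07, 8.01 and 8.03 in ESCs, 8.23, 8.32 and 8.35 in CHIR/XAV and 7.59, 7.69 and 7.49 in FGF2/activin EpiSCs, with no overlap between groups. The differences were 0.26 (adjusted p = 0.00642, limma) in CHIR/XAV and -0.45 (adjusted p = 8.27e-05) in FGF2/activin EpiSCs from ESCs, and 0.71 between the EpiSC cultures (adjusted p = 1.72e-06). The small difference in CHIR/XAV EpiSCs was not called after median centring (0.16, adjusted p = 0.0612).

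Of 17 measured regulators and targets in the ATF4 list, which holds Atf4, 8 were lower and 3 higher than in ESCs in each EpiSC culture. Of all genes, 22.1% were lower and 24.7% higher in the CHIR/XAV culture, and 33.5% and 27.8% in the FGF2/activin culture. The list's median was -0.16 in CHIR/XAV and -0.18 in FGF2/activin EpiSCs. After median centring 11 were lower and 2 higher in the CHIR/XAV culture, where 7426 and 3991 of all 19938 genes were. After quantile normalization 11 were lower and 1 higher in the FGF2/activin culture, where 5709 and 4871 of all genes were. Between the EpiSC cultures 5 were higher in CHIR/XAV (20.5% of all genes) and 4 lower (21.1%). Chac1, a glutathione-degrading enzyme gene, read 8.27, 8.61 and 8.19 in ESCs, 7.95, 7.92 and 8.23 in CHIR/XAV and 5.46, 5.26 and 5.58 in FGF2/activin EpiSCs. Its difference from ESCs was -2.92 in FGF2/activin EpiSCs (adjusted p = 4.59e-11, limma), -0.32 in CHIR/XAV EpiSCs, and it was 2.6 between the EpiSC cultures. Nupr1, a small stress-induced nuclear protein gene, read 8.32, 8.42 and 8.28 in ESCs against 5.65, 5.68 and 5.78 in CHIR/XAV and 5.05, 4.99 and 5.16 in FGF2/activin EpiSCs. It resembled Ddit3 in being high in ESCs alone, with differences of -2.64 and -3.27. The low arrays of both genes were near or below the array median, which makes the sizes uncertain. Atf5, a factor related to ATF4, was lower in both EpiSC cultures (-0.90 and -1.03), and Stc2, a secreted glycoprotein gene, in CHIR/XAV EpiSCs (-0.89). Ddit4 (REDD1), an mTORC1 inhibitor that hypoxia and glucocorticoids also induce, went the other way, by 0.96 in CHIR/XAV and 1.81 in FGF2/activin EpiSCs. Between the EpiSC cultures Vldlr, a lipoprotein receptor gene, was higher in CHIR/XAV (0.86), and Ddit4 (-0.86) and the interferon-induced eIF2 kinase gene Eif2ak2 (-0.90) were lower.

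Most amino acid transporters were higher in CHIR/XAV than in FGF2/activin EpiSCs. Of 11 measured, 10 were called higher (limma, adjusted p under 0.05, median 0.95), as 20.5% of all genes were (median 0.05). After quantile normalization 11 were, as were 3863 of all 19938 genes. None was lower, also at an unadjusted p under 0.05. The exception was Slc7a1, an arginine and lysine carrier, at 0.05. Against ESCs, 10 were lower (33.5% of all genes) and 1 higher (27.8%) in FGF2/activin EpiSCs (median -0.86). In CHIR/XAV EpiSCs 7 were higher (24.7% of all genes) and 2 lower (22.1%, median 0.30). After median centring 5 were higher and 3 lower, against 3991 and 7426 of all 19938 genes. Slc7a11, the cystine carrier xCT, read 5.8, 5.73 and 5.67 in ESCs, 7.64, 7.85 and 7.61 in CHIR/XAV and 4.48, 4.41 and 4.56 in FGF2/activin EpiSCs. It was the widest of the list, 3.22 log2 units between the EpiSC cultures (adjusted p = 1.12e-12, limma), and it was higher than in ESCs in one culture (1.97) and lower in the other (-1.25). Its FGF2/activin arrays were below the array median and its ESC arrays near it, where a level cannot be told from background, so the sizes of these differences are uncertain. Slc6a9, the glycine carrier GlyT1, read 7.93, 8.09 and 8.02 in ESCs, 8.26, 8.48 and 8.21 in CHIR/XAV and 6.55, 6.3 and 6.35 in FGF2/activin EpiSCs. Its difference from ESCs was -1.61 in FGF2/activin EpiSCs. Slc1a5, a glutamine carrier, and Slc38a1, another neutral amino acid carrier, were higher in CHIR/XAV than in FGF2/activin EpiSCs by 1.15 and 1.16. Slc7a1 was lower in both EpiSC cultures than in ESCs (-1.39 and -1.44), while Slc38a2 (SNAT2) was higher in CHIR/XAV EpiSCs by 0.93.

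**Figure D3:**
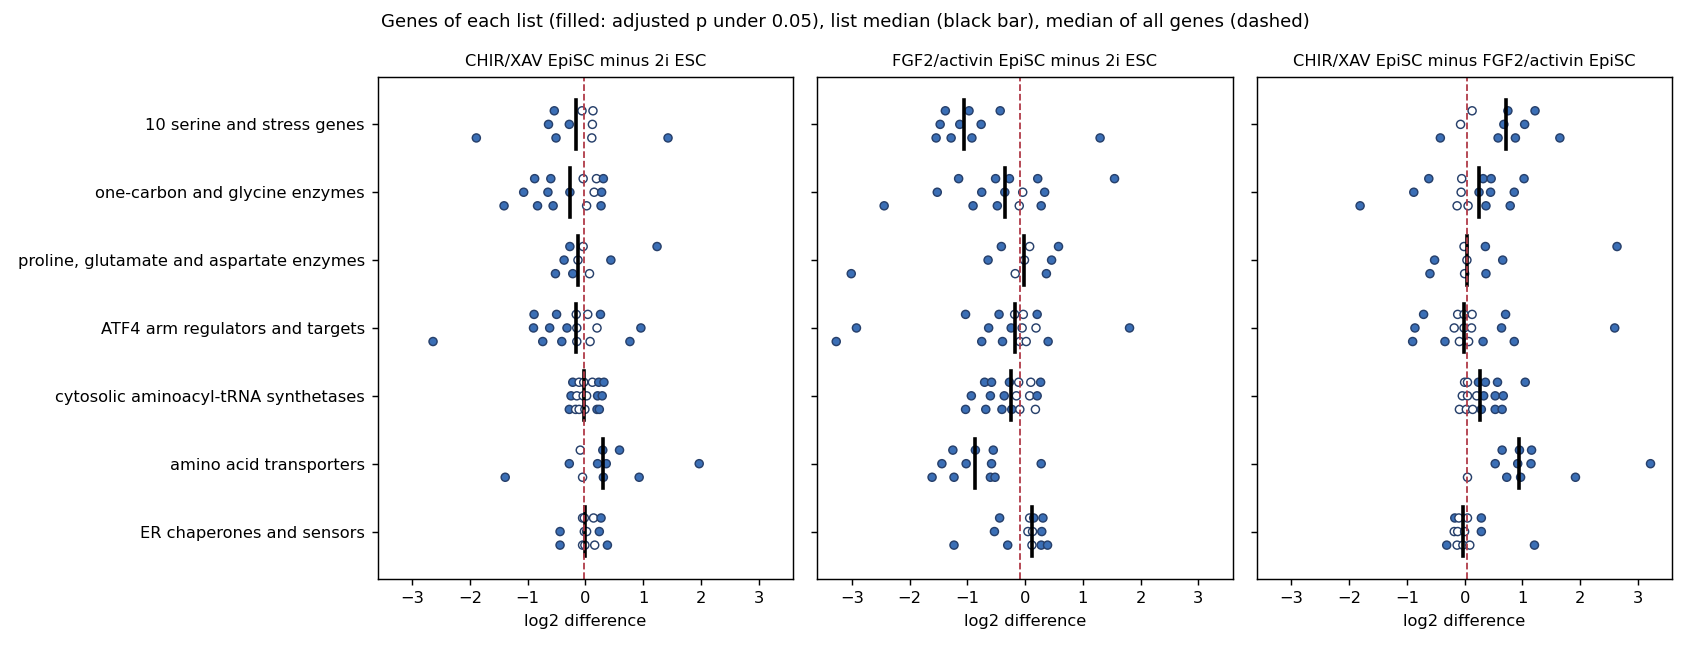
Log2 differences (horizontal axis) of every measured gene in 7 functional lists in 3 comparisons, with filled circles for calls, black bars for list medians and a dashed line for the median of all genes. In FGF2/activin EpiSCs against ESCs the medians of the 10 genes (-1.05) and of the amino acid transporters (-0.86) lie farthest to the left, whereas in CHIR/XAV EpiSCs against ESCs all list medians lie between -0.27 and 0.30.

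Cytosolic aminoacyl-tRNA synthetases charge tRNAs with amino acids. Of 18 measured, 10 were higher in CHIR/XAV than in FGF2/activin EpiSCs (limma, adjusted p under 0.05, median 0.27), against 20.5% of all genes, and 8 were not called. None was lower, also at an unadjusted p under 0.05. Against ESCs, 10 were lower (33.5% of all genes) and 2 higher (27.8%) in FGF2/activin EpiSCs (median -0.25). After quantile normalization 13 were lower, as were 5709 of all 19938 genes. In CHIR/XAV EpiSCs 6 were higher (24.7% of all genes) and 3 lower (22.1%). After median centring 2 were higher and 7 lower, against 3991 and 7426 of all 19938 genes, so no direction is given there. Cars (cysteine), Gars (glycine), Yars (tyrosine) and Nars (asparagine) fell most in FGF2/activin EpiSCs, by -1.03, -0.93, -0.70 and -0.68.

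Of 15 one-carbon and glycine genes measured outside the 10, 8 were below ESCs (22.1% of all genes) and 3 above (24.7%) in the CHIR/XAV culture (median -0.27). In the FGF2/activin culture 9 were below (33.5% of all genes) and 4 above (27.8%, median -0.35). Gldc, the decarboxylase of the glycine cleavage system, stepped down from 10.33, 10.27 and 10.28 in ESCs to 8.85, 8.93 and 8.87 in CHIR/XAV and 7.82, 7.91 and 7.85 in FGF2/activin EpiSCs. These steps, -1.41 and -2.44 from ESCs (adjusted p = 1.73e-10 and 3.69e-13, limma), had the graded course of Shmt2. Amt, the aminomethyltransferase of the same system, followed with -1.07 and -1.52. Aldh1l2, a mitochondrial formyl-folate dehydrogenase gene, was lower by -0.83 and -1.15, with EpiSC levels below the array median.

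Proline, glutamate and aspartate enzymes went both ways: of 9 measured, 4 were below (22.1% of all genes) and 2 above ESCs (24.7%) in the CHIR/XAV culture (median -0.13), and 3 below (33.5%) and 3 above (27.8%) in the FGF2/activin culture (median -0.01). Gpt2, the mitochondrial alanine aminotransferase, had the widest change, reading 9.49, 9.57 and 9.51 in ESCs, 9.15, 9.12 and 9.17 in CHIR/XAV and 6.46, 6.49 and 6.59 in FGF2/activin EpiSCs. Its difference from ESCs was -3.01 (adjusted p = 6.79e-14, limma) in the FGF2/activin and -0.37 in the CHIR/XAV culture. Pycrl, a pyrroline-5-carboxylate reductase gene, was higher by 1.24 in CHIR/XAV and 0.58 in FGF2/activin EpiSCs, unlike Aldh18a1 upstream of it.

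Chaperones and sensors of the endoplasmic reticulum, genes of the unfolded protein response, showed no common direction. Of 13 measured, 3 were above (24.7% of all genes) and 2 below ESCs (22.1%) in the CHIR/XAV culture, and 5 above (27.8%) and 4 below (33.5%) in the FGF2/activin culture, with medians of -0.01 and 0.12, the latter -0.04 after quantile normalization. Herpud1, an adaptor of protein degradation at that membrane, was lower in FGF2/activin EpiSCs (-1.23, adjusted p = 1.02e-08, limma), and Xbp1, a transcription factor of the response, was lower in both EpiSC cultures (-0.44 and -0.53). Calr, the chaperone calreticulin, was higher in both (0.27 and 0.39).

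**Figure D4:**
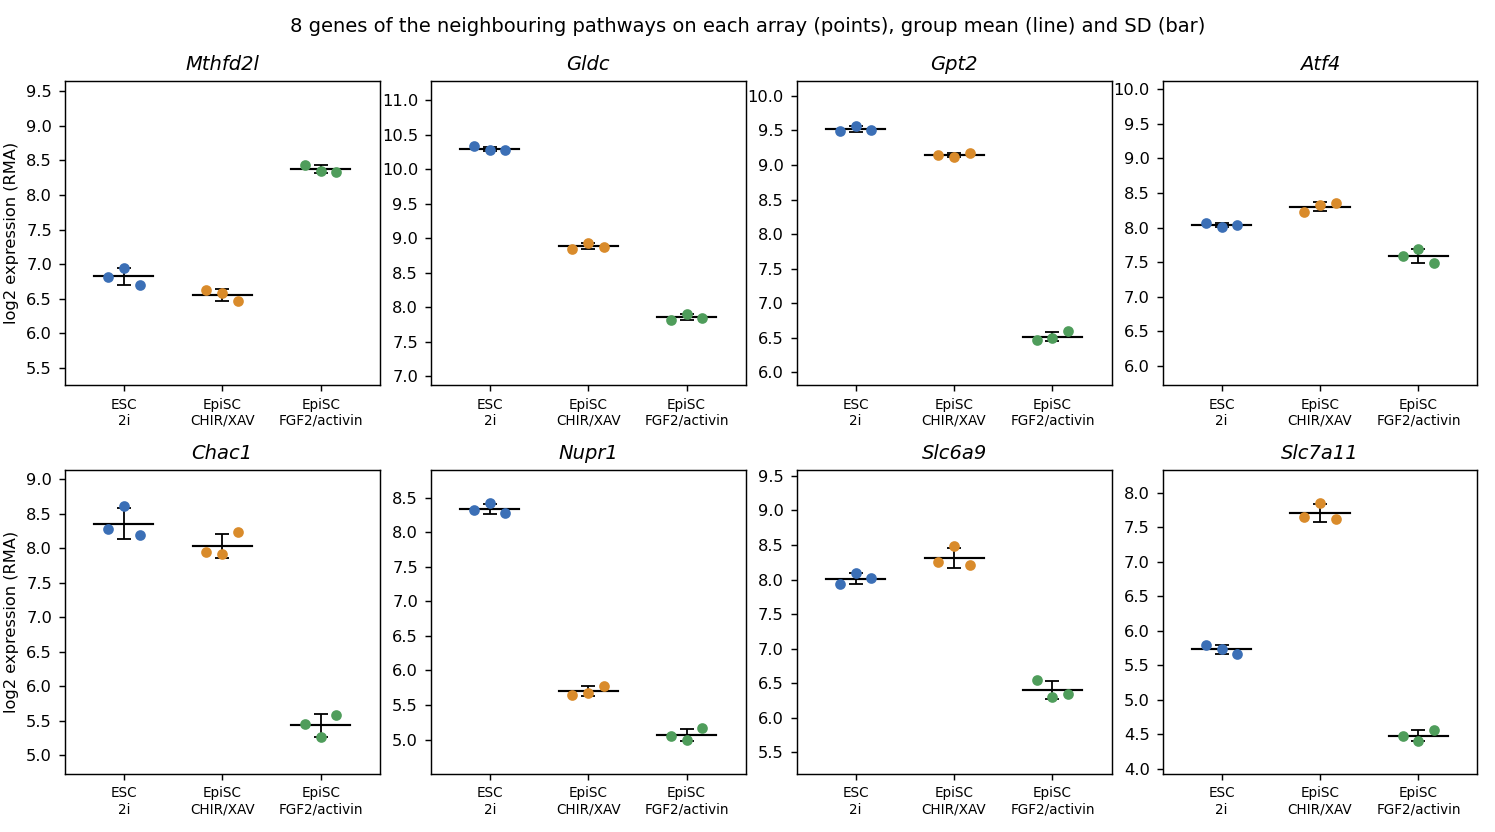
Log2 expression (RMA, vertical axis) of 8 genes of the surrounding pathways on each of 9 arrays, with points for arrays, lines for group means and bars for the SD. Panels span the same number of log2 units at different levels. Gpt2, Chac1 and Slc6a9 are low on the FGF2/activin arrays, Slc7a11 differs among all 3 cultures, and Mthfd2l is high on the FGF2/activin arrays (8.33 to 8.44).

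The genes most like a member were found by the root mean square difference of gene-centred log2 values over the 9 arrays, leaving out predicted genes. Nearest to Phgdh were Zfp619 (0.058), Atg4d (0.075) and Ccdc138 (0.075), and its nearest member was Psat1 (0.323). Nearest to Asns were Ttyh2 (0.045), Slx1b (0.07) and Tmc8 (0.071), and its nearest member was Psat1 (0.117). Trib3 was most like Rps6kl1 (0.059), Rec8 (0.094) and Frrs1 (0.099), with Mthfd2 as its nearest member (0.222). Atf3 was most like Fxyd5 (0.099), Lynx1 (0.102) and Prtg (0.105), whereas no other member came closer to it than 0.855 (Aldh18a1). Zfp619, Tmc8, Rps6kl1, Rec8, Fxyd5 and Lynx1 each had a group mean below the array median. Such a level cannot be told from background.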

How the data were processed

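Total RNA of 9 samples was hybridised to single-colour Affymetrix Mouse Gene 1.0 ST arrays. What the authors deposited is 1 log2 value per probe set and array, made with RMA in Partek, per the submitters' processing notes; the range of the values shows the scale, and no version is named. Detection calls were not used here, so dim levels cannot be told from background.

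Groups and replicate numbers came from the sample titles. The platform annotation gave a single gene symbol to 21789 of 35399 probe sets, several to 1621 and none to 11989. Of 19938 genes, 19919 matched a RefSeq entry (GRCm38.p6) by identifier or symbol, and older symbols were replaced by its names. Among several probe sets (999 genes) the brightest over all arrays was used. All 9 arrays entered 1 limma 3.58.1 fit in R 4.3.3 (lmFit, contrasts.fit, eBayes, no covariates, no filter), with Benjamini-Hochberg adjustment over all genes and a threshold of 0.05. On simulated data for FGF2/activin EpiSCs against ESCs (19938 genes) the fit called 72% of the 50 genes given a shift of 0.5 (log2). It called 100% of the 100 given a shift of 1 and of the 50 given a shift of 2, with 9 false calls among 195. Only these genes were shifted and the noise was independent, whereas 61.3% of genes were called in the data, so these rates need not hold there.

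The members and the lists were chosen with earlier results of these data known. Named genes are all members, Atf4 and up to 4 called genes with the widest difference per list and comparison. The shared Phgdh probe set, the single markers Thy1, Eomes, Nes and Tfap2c, the genes singled out as exceptions and those of the closing observations were chosen after their values were seen. Some genes of the lists were not analysed here, and counts are over the measured ones. Promoter stretches come from RefSeq (GRCm38.p6), where all 10 members matched. Deviations of same-numbered arrays from their group means correlated weakly (r from -0.071 to 0.239), as did those of differently numbered arrays (-0.227 to 0.178). With 3 arrays a group this cannot settle whether replicate numbers pair samples, and a block on that number was fitted as an alternative.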

Additional observations from a re-analysis of the deposited data

Results flagged for a closer look

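For 8 of the 10 genes the change from ESCs differed between the EpiSC cultures, as the contrast between those cultures shows in the same limma fit (adjusted p under 0.05, 3 arrays per group). The difference was 1.65 log2 units for Mthfd2, 1.22 for Trib3, 1.04 for Psph, 0.88 for Aldh18a1, 0.75 for Shmt2, 0.68 for Psat1 and 0.58 for Asns, with all 3 CHIR/XAV arrays above all 3 FGF2/activin arrays in each. For Ddit3 it was -0.42, with all 3 CHIR/XAV arrays below. Of all genes, 41.6% were called in this comparison. Phgdh and Atf3 were not called in it.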

How the results depend on the processing

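With array weights, median centring, a fit limited to the compared groups, a robust variance trend, no genes from the dimmest 40%, or the mean over probe sets, the number of the 10 genes called stayed at 6, 10 and 8 in the 3 comparisons (CHIR/XAV against ESC, FGF2/activin against ESC, CHIR/XAV against FGF2/activin EpiSC). With the replicate number as a block it was also 6, 10 and 8, and 9325, 12202 and 8246 of all genes were called, so the block changed no call of a member. Quantile normalization gave 7, 10 and 9, adding Trib3 (-0.22 in CHIR/XAV EpiSCs against ESCs, adjusted p = 0.0231, limma) and Atf3. A limma treat test against 1.5-fold, which asks for a larger change, called 2, 8 and 4 of the 10 and 2241, 2726 and 1175 of all genes. Leaving out each array in turn gave 6, 10 and 7 to 8 of the 10, and 8438 to 9268, 10561 to 12416 and 6923 to 8418 of all genes. The sign turned only where no difference was called: Phgdh between the EpiSC cultures was 0.06 after quantile normalization and ran from -0.17 to 0.04 over arrays left out (positive without the second FGF2/activin array). Psph between CHIR/XAV EpiSCs and ESCs ran from -0.0035 (without the third CHIR/XAV array) to 0.22. Other genes, in the comparisons where the naming rule picked them, kept sign and call in 1312 alternative values and lost the call in 36. Of those 36, 32 were under the treat test. All but Atf4 were picked as called and widest in their list, so this stability was in part set by the choice. In comparisons outside that choice, many listed genes changed call under another scaling. Eif2ak1, Eif2ak2, Eif2ak3, Eif2ak4 and Mthfd1l are given below. Among the others, Slc6a9, Slc7a3, Eprs, Rars and Hars lost the call between CHIR/XAV EpiSCs and ESCs after median centring. Slc7a5, Farsb and Iars gained it there. Background correction was not varied, because only summarised values were used here. Precision is limited by 3 arrays a group, and levels near the array median may be background.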

Other observations

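Paralogous enzymes of one-carbon metabolism did not move together. Mthfd2l, the close relative of Mthfd2, read 6.82, 6.95 and 6.7 in ESCs, 6.63, 6.58 and 6.46 in CHIR/XAV and 8.44, 8.35 and 8.33 in FGF2/activin EpiSCs. Its difference from ESCs in the FGF2/activin culture was 1.55 (SE 0.08, adjusted p = 5.36e-10, limma), where that of Mthfd2 was -1.54. Probe sets differ in brightness, so the levels of the paralogs cannot be added or compared. The cytosolic Shmt1 was lower in FGF2/activin EpiSCs (-0.90, adjusted p = 2.25e-07) but not called in CHIR/XAV EpiSCs (-0.04), unlike the graded mitochondrial Shmt2. Mthfd1, the cytosolic trifunctional enzyme, was higher in both EpiSC cultures (0.28 and 0.34), and Mthfd1l, its mitochondrial relative, was not called in either (0.15 and -0.1), except in FGF2/activin EpiSCs after quantile normalization (-0.23). Sfxn1, a mitochondrial serine carrier, differed from ESCs by -0.6 in the CHIR/XAV culture and by 0.28 in the FGF2/activin culture, both called.

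Among the genes of the kinases that phosphorylate eIF2, Eif2ak2 (PKR) differed most, by -0.9 between the CHIR/XAV and FGF2/activin cultures (adjusted p = 7.23e-08, limma), a call kept under both other scalings. It was lower than in ESCs in the CHIR/XAV culture (-0.5) and higher in the FGF2/activin culture (0.4), the latter not called after quantile normalization (0.12, adjusted p = 0.11, limma). Eif2ak3 (PERK) and Eif2ak4 (GCN2) were not called in the CHIR/XAV culture as deposited (-0.15 and -0.16) but were after median centring (-0.25 and -0.26). Eif2ak1 (HRI) was called in the FGF2/activin culture as deposited (0.21, adjusted p = 0.0348) but not after median centring (0.13) or quantile normalization (0.03).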
